A study of Homo sapiens with 10 samples.

Results

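The 4 HOX clusters were followed through gamma-H2AX, H2AX and H3K27me3 profiles of irradiated and untreated human cell lines. They were taken as all hg19 1-kb bins within chr7:27130001-27250000 (HOXA, 120 kb), chr17:46600001-46810000 (HOXB, 210 kb), chr12:54330001-54450000 (HOXC, 120 kb) and chr2:176950001-177060000 (HOXD, 110 kb). These boundaries, which rest on no measured value, hold 560 of the 2820626 bins in the tracks. Each cluster was set beside the 200 kb on either side of it, 400 bins for HOXA, HOXB and HOXD and 398 for HOXC. The assay was CUT&RUN, in which a nuclease tethered to an antibody releases the DNA around the antibody's target for sequencing.

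There were 10 libraries in 6 groups. Gamma-H2AX, the phosphorylated form of histone H2AX that marks chromatin around double-strand breaks, was profiled in K562 erythroleukaemia cells given 6 Gy of ionising radiation from a cobalt source, after 1 h of recovery (2 libraries) and after 24 h (2 libraries). It was also profiled in HepG2 liver carcinoma cells given the same dose, after 1 h (1 library). H3K27me3 was profiled in irradiated K562 cells after 1 h (1 library). The libraries used as reference are titled H2AX and came from untreated K562 cells (2 libraries) and untreated HepG2 cells (2 libraries), although their antibody label names histone H4. No group here is an untreated gamma-H2AX or an untreated H3K27me3 profile, and the labels do not say whether replicates were separate cultures.

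HOX genes encode homeodomain transcription factors that give cells their position along the body axis. Each cluster is ordered along the chromosome from low-numbered groups, used towards the head, to the group 13 genes, used towards the tail. Clusters that a cell does not use are classically covered by H3K27me3, the mark written by Polycomb repressive complex 2, in broad domains. In the RefSeq annotation HOXA (11 genes) and HOXB (10 genes) run from group 1 to group 13 with increasing coordinate. HOXD (9 genes) runs the other way, and so does HOXC (9 genes), whose lowest group is 4. That annotation is of GRCh38.p14, so it was used for gene order and not to place genes in the hg19 windows.

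HOX promoters are known for being rich in CpG, a feature of sequence to which Polycomb complexes are recruited. The 250 bases before the start of 3 HOX genes are shown because their clusters behaved differently in the K562 profiles described below. HOXA13 and HOXD13, which pattern the distal limb, belong to clusters that were H3K27me3-rich throughout, and HOXB1, which acts in the hindbrain, belongs to the cluster with the highest gamma-H2AX. The sequences are from RefSeq (GRCh38.p14), written 5′ to 3′ on the gene's strand, with every CpG in capitals. HOXA13 lies at chr7:27200092-27200341 on the minus strand, HOXD13 at chr2:176092471-176092720 on the plus strand and HOXB1 at chr17:48531012-48531261 on the minus strand.
HOXA13: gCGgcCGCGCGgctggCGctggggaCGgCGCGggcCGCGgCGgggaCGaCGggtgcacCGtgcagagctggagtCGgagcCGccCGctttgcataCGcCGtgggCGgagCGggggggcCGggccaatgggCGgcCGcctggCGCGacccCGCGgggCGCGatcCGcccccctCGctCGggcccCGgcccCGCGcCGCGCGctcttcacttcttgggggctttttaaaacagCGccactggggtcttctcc
HOXD13: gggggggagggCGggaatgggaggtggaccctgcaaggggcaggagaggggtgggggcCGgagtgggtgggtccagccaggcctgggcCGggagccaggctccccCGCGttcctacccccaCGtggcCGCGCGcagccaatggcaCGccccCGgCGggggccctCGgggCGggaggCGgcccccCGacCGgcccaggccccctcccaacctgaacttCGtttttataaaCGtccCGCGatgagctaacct
HOXB1: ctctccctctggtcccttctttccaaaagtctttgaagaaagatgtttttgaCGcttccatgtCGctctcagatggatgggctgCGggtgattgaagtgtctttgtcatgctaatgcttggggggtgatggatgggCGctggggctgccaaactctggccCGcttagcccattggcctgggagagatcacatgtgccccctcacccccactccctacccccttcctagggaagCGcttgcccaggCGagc
Counted over these 250 bases and the next 50, CG (the same on both strands) occurred 44 times at HOXA13, 24 times at HOXD13 and 11 times at HOXB1. As many were found at 4.19%, 33.9% and 54.7% of all 35116 promoters in the table for HOXA13, HOXD13 and HOXB1 in that order. The 27 HOX promoters in the table, from 20 of the HOX genes, had a median of 22, against 14 over all promoters. Within HOXA and HOXD the medians were 21.5 and 24.5, with 11 at HOXA2, 0 to 29 over the HOXA3 starts and 4 at HOXD4. The 3 promoters shown therefore do not stand for their clusters. Because the table holds 1 HOXB promoter and 2 HOXC promoters, clusters were not compared by CpG.

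The tracks give mean depth per base in 1-kb bins, from 0.324 to 1.77 over libraries, and are not scaled to depth. Levels below are therefore relative depth, the value divided by its library's mean. The K562 labels were checked on H2AX: a chromosome 9 segment lost in K562 (chr9:22000001-24000000) read 0.000995 and 0.00114 in K562 against 0.942 and 0.958 in HepG2. K562 gamma-H2AX 24 h replicate 1 stands apart, since its track read 0 in 36.2% of all bins, against 3.43% in replicate 2. No bin with a mean 1 h depth above 1.642 had signal in it, which covers 170 HOX bins and 933070 bins of the genome. That cutoff was read from the track itself, as the highest mean 1 h depth of any bin not at 0. Of these 170 bins, 127 were in HOXB, 42 in HOXC, 1 in HOXD and 0 in HOXA. That library was left out of the fits described first, and calls that change with it in the fit are given with both. The K562 1 h gamma-H2AX and H3K27me3 tracks rise in steps of 60 bp and the other 7 in steps of 41 bp. Target, irradiation and read length therefore cannot be told apart in a comparison of 1 h with H2AX. Nor can read length be told apart from recovery time in 1 h against 24 h, or from cell line in the difference between lines.

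One hour after irradiation the 4 clusters fell into different states in K562. Gamma-H2AX was low over the whole of HOXA and HOXD, high over most of HOXB and intermediate over HOXC. HOXA had a relative depth of 0.475 and 0.249 in the 1 h libraries, against 0.991 and 0.919 in H2AX. HOXD had 0.590 and 0.298 in the 1 h libraries against 1.13 and 1.13 in H2AX. In these clusters the 1 h replicates differed from each other more than the H2AX replicates did. HOXB had 1.52 and 1.96 in the 1 h libraries against 1.27 and 1.27 in H2AX. HOXC had 0.889 and 0.981 in the 1 h libraries against 1.32 and 1.13 in H2AX, in the opposite direction. With 2 libraries against 2 an exact two-sided permutation test cannot go below p = 0.333, so single levels were not tested. How often the libraries of 2 groups separate over the genome was not counted. Such separation, here and below, is therefore description only.

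**Figure D1:**
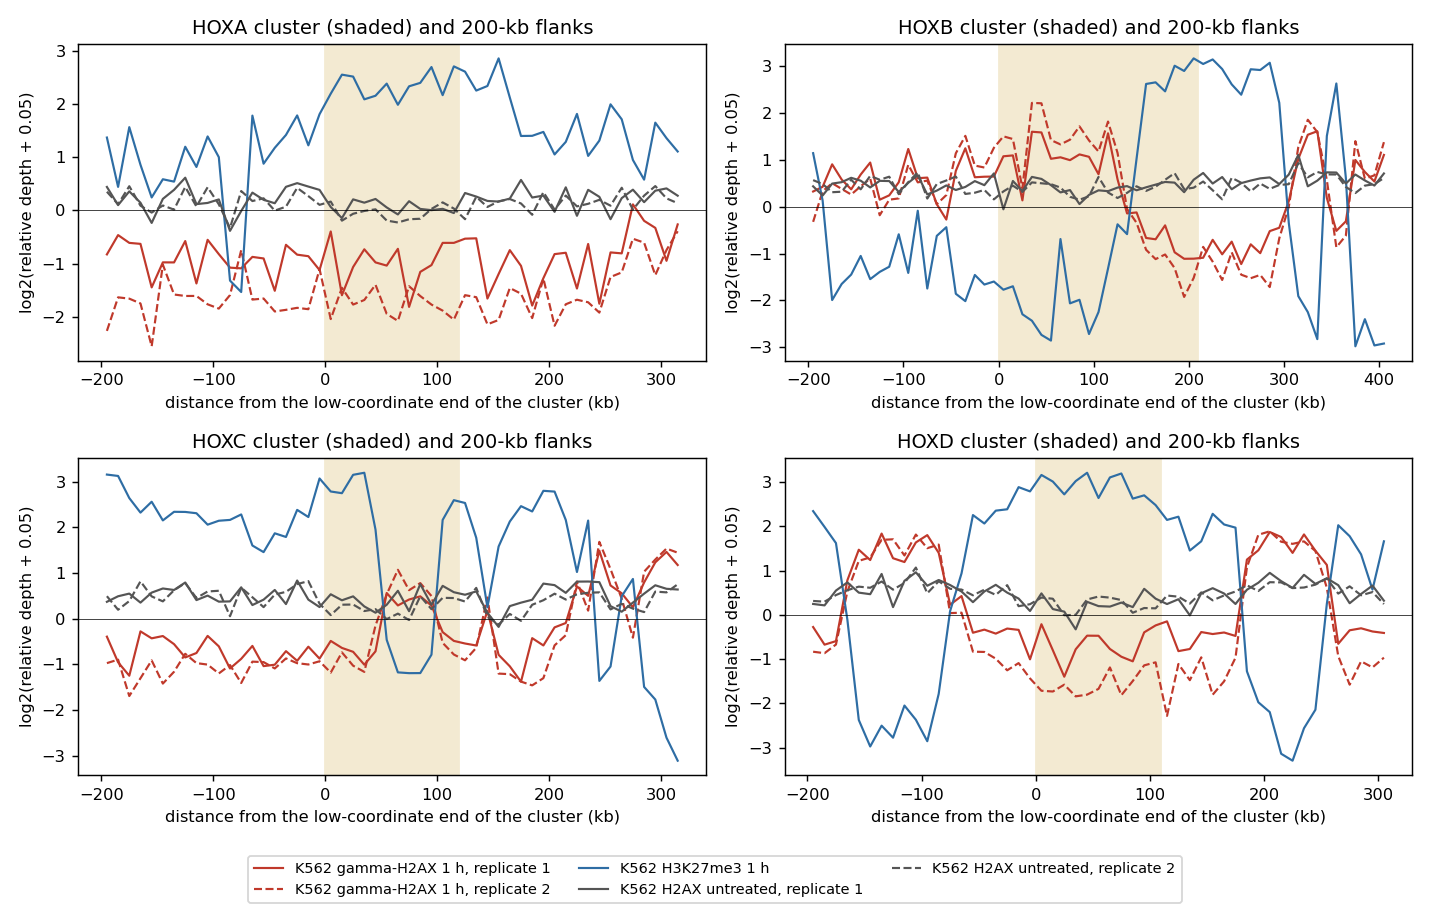
Relative depth on a log2 scale (pseudocount 0.05) in 10-kb windows across each HOX cluster (shaded) and its flanks, against distance in kb from the cluster's low-coordinate end; line colour marks the target and line style the replicate. The 1 h gamma-H2AX lines (red) lie below the H2AX lines (grey) wherever the H3K27me3 line (blue) is high inside the clusters, and above them over most of the low-coordinate part of HOXB.

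The 560 bins make 56 10-kb windows, each of which passed the filter on low H2AX depth. These were tested with limma on log2(relative depth + 0.05) together with all 276061 windows of the genome that passed, with Benjamini-Hochberg adjustment over all of them and adjusted p under 0.05. Against H2AX, 11 HOX windows were higher in K562 gamma-H2AX at 1 h, where 18.5% of all windows were, and 38 were lower, where 36.4% of all windows were. In either direction that is 87.5% of the HOX windows, against 54.9% of all windows. The 11 higher windows were all in HOXB, which also had 8 lower ones among its 21. All 12 HOXA windows, all 11 HOXD windows and 7 of the 12 HOXC windows were lower. With 24 h replicate 1 in the fit, no window of the genome passed. Unadjusted p was then under 0.05 in 32 of the 56 HOX windows and in 84396 of all windows.

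HOXB was split along its length. In the 70 kb at the group 1 end, gamma-H2AX was 2.16 and 2.99 at 1 h, and H3K27me3 there was 0.221. The 70 kb at the group 13 end had gamma-H2AX of 0.573 and 0.419, with H3K27me3 at 6.28. The window with the largest difference from H2AX, chr17:46710001-46720000, had 2.91 and 3.46 in the 1 h libraries against 1.21 and 1.18 in H2AX. Its log2 difference was 1.37 (SE 0.18, limma adjusted p = 0.000159), and both 1 h libraries were above both H2AX libraries. At the other extreme, chr17:46790001-46800000 had 0.413 and 0.213 in the 1 h libraries against 1.19 and 1.25 in H2AX, a log2 difference of -1.86 (SE 0.24, limma adjusted p = 0.000157). With 24 h replicate 1 in the fit the adjusted p of these windows were 0.570 and 0.0590.

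The change of state in HOXB fell between neighbouring windows, which were chosen after their values were seen. At chr17:46720001-46730000 gamma-H2AX was 1.45 and 2.16 in the 1 h libraries against 1.27 and 1.09 in H2AX, with H3K27me3 at 0.720. The next window, from 46730001, had 0.854 and 0.916 in the 1 h libraries against 1.30 and 1.18 in H2AX, with H3K27me3 at 0.616. The one after it, from 46740001, had 0.868 and 0.737 against 1.22 and 1.30, with H3K27me3 at 1.98. Gamma-H2AX was thus already lower than H2AX in a window where H3K27me3 was below its library mean (log2 difference -0.46, limma adjusted p = 0.0483), 1 window before H3K27me3 passed that mean. The 0.616 there was still above the median of all tested windows, 0.213. With 24 h replicate 1 in the fit this window did not pass, like every other window of the genome. A dip also stood inside the gamma-H2AX-rich part. The window from 46620001 had 1.05 and 1.26 in the 1 h libraries against 1.21 and 1.19 in H2AX, although H3K27me3 was only 0.154 there and the next window, from 46630001, reached 2.97 and 4.58 at 1 h.

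HOXC held a gap in H3K27me3. In its 5 windows from 54380001 to 54430000, H3K27me3 was 0.388 to 0.676 and gamma-H2AX was 1.17 to 1.43 in 1 h replicate 1 and 1.36 to 2.05 in replicate 2. The other 7 HOXC windows had H3K27me3 of 3.81 to 9.09, with gamma-H2AX of 0.448 to 0.766 in replicate 1 and 0.392 to 0.852 in replicate 2. None of the 5 gap windows differed from H2AX beyond the threshold, while all 7 others were lower. In the gap window with the highest difference, chr12:54400001-54410000, gamma-H2AX was 1.29 and 1.49 in the 1 h libraries against 1.07 and 0.930 in H2AX (log2 difference 0.45, SE 0.20, limma adjusted p = 0.0693). It passed without 1 h replicate 1 (limma adjusted p = 0.0172) and with median-of-ratios scaling (limma adjusted p = 0.0295). The lowest, chr12:54360001-54370000, was also the HOXC window richest in H3K27me3 (9.09). It had 0.448 and 0.397 in the 1 h libraries against 1.15 and 1.07 in H2AX (log2 difference -1.30, SE 0.20, limma adjusted p = 0.000274), and its adjusted p was 0.0958 with 24 h replicate 1 in the fit.

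HOXA and HOXD were low in every window. Over the 12 HOXA windows the log2 difference from H2AX ran from -1.62 to -1.25, and over the 11 HOXD windows from -1.69 to -0.91. The lowest HOXA window, chr7:27200001-27210000, had 0.234 and 0.322 in the 1 h libraries against 1.08 and 0.841 in H2AX. The highest, chr7:27190001-27200000, had 0.556 and 0.187 in the 1 h libraries against 0.898 and 0.804 in H2AX. These neighbours are ranked in opposite order by the 2 libraries, and over the 12 windows the 1 h replicates had a Spearman's rho of -0.67, so the order of windows inside HOXA did not repeat between the libraries. The same rho was 0.984 over 21 windows in HOXB, 0.797 over 12 in HOXC and 0.264 over 11 in HOXD. The lowest HOXD window, chr2:177020001-177030000, had 0.469 and 0.234 in the 1 h libraries against 1.16 and 1.21 in H2AX, and the highest, chr2:177050001-177060000 at the group 1 end, had 0.797 and 0.425 against 1.24 and 1.06. Leaving out single libraries moved these differences: from -1.92 to -0.57 for the HOXA window from 27190001, -2.04 to -0.60 for 27240001, -2.12 to -0.79 for the HOXD window from 176990001 and -1.33 to -0.50 for 177050001. The window from 177050001 lost its call without K562 H2AX replicate 1 (limma adjusted p = 0.0856), and the one from 27190001 without either K562 H2AX library (limma adjusted p = 0.0990 and 0.0671).

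**Figure D2:**
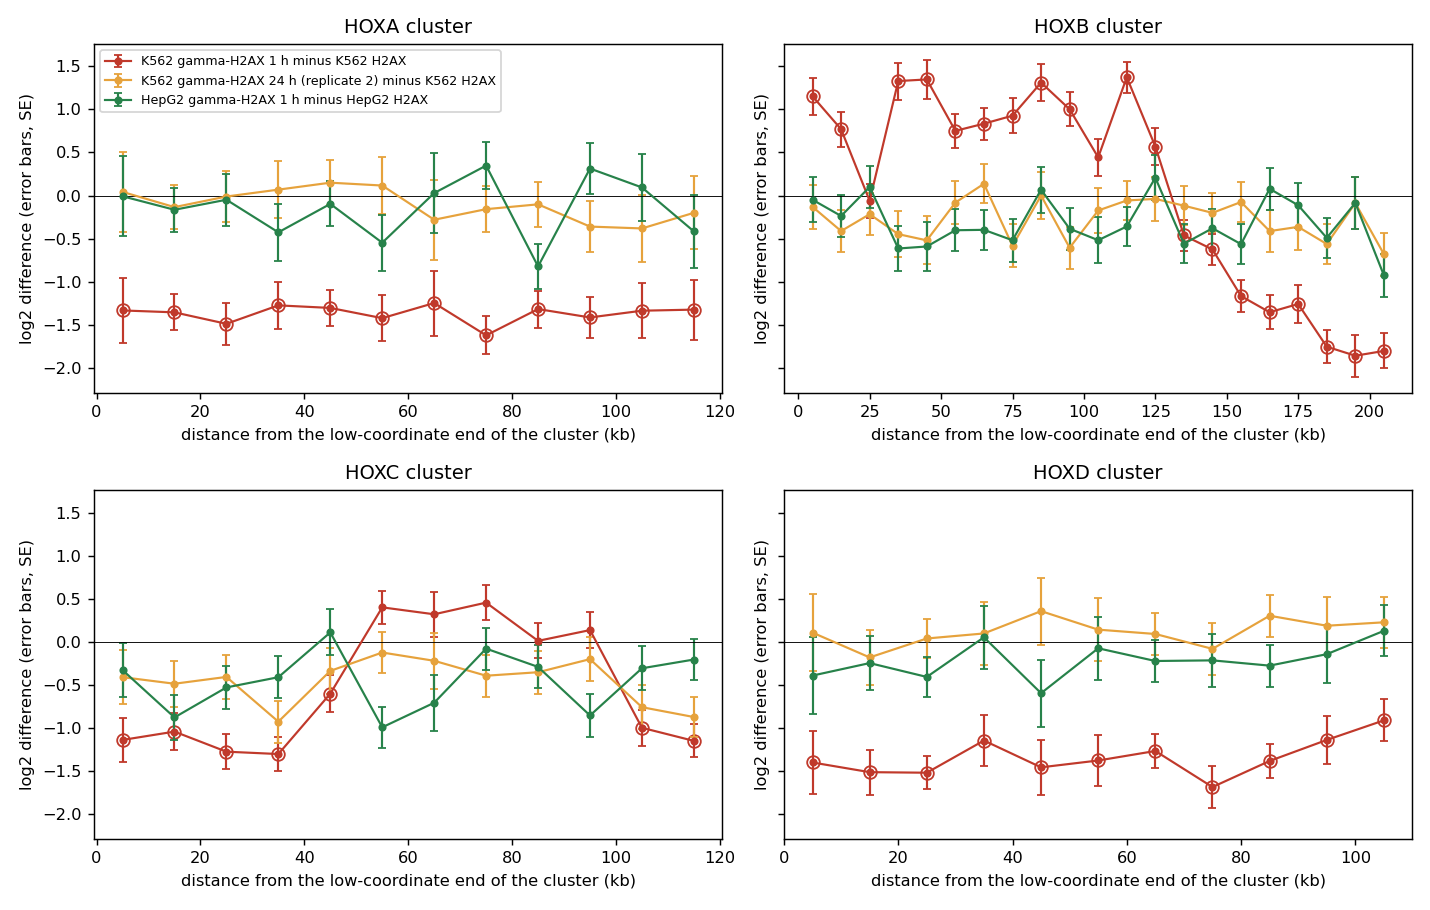
Log2 difference in relative depth (limma, error bars SE) for each 10-kb window of the HOX clusters against distance in kb from the cluster's low-coordinate end, for K562 gamma-H2AX at 1 h (red) and 24 h (orange, replicate 2) over K562 H2AX and HepG2 gamma-H2AX at 1 h (green) over HepG2 H2AX; open rings mark adjusted p under 0.05. Rings appear in the 1 h K562 series alone, above 0 in HOXB and below 0 in each cluster.

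H3K27me3 covered HOXA and HOXD from end to end in K562. Its relative depth was 5.10 in HOXA, 2.28 in HOXB, 3.999 in HOXC and 7.51 in HOXD, from the single library. Against H2AX 37 HOX windows were higher in H3K27me3, where 21.6% of all windows were, and 19 were lower, where 63.4% of all windows were (85% in either direction). The higher ones were all windows of HOXA and HOXD, 7 in HOXB and 7 in HOXC. The richest windows were chr7:27240001-27250000 in HOXA (6.47), chr17:46800001-46810000 in HOXB (8.89), chr12:54360001-54370000 in HOXC (9.09) and chr2:176990001-177000000 in HOXD (9.20). Median-of-ratios scaling shifted the H3K27me3 library by 1.92 on the log2 scale and the K562 H2AX libraries by -0.225 and -0.246. The HOX windows then split into 43 higher and 6 lower, with 86.7% of all windows called in either direction. With 24 h replicate 1 in the fit they were 36 higher and 4 lower, with 58.6% of all windows called.

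In each cluster the end that carries the group 13 genes lay in H3K27me3-rich, gamma-H2AX-poor sequence. The last window at that end had H3K27me3 of 6.47 in HOXA, 8.89 in HOXB, 6.83 in HOXC and 8.88 in HOXD. Gamma-H2AX in the same windows at 1 h was 0.605 and 0.191 in HOXA, 0.413 and 0.298 in HOXB, 0.664 and 0.392 in HOXC and 0.813 and 0.254 in HOXD. At the opposite end only HOXB was free of the mark, with 0.243, against 4.52 in HOXA, 5.99 in HOXC and 5.52 in HOXD. Runs of windows at or above the library mean of H3K27me3 carried beyond the boundaries. They measured 500 kb around HOXA (chr7:27060001-27560000), 260 kb around HOXD (chr2:176870001-177130000) and 160 kb from the group 13 side of HOXB outwards (chr17:46740001-46900000). HOXC had 310 kb and 140 kb on the sides of its gap. The median log2 difference of gamma-H2AX at 1 h from H2AX was -1.36 in the HOXA run, -1.31 in the HOXD run, -1.60 in the HOXB run and -1.28 and -1.09 in the HOXC runs.

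Over all clusters, the 37 HOX windows at or above the H3K27me3 library mean, a level chosen after the values were seen, had a median log2 difference of gamma-H2AX from H2AX of -1.32, and 37 of 37 were lower at 1 h. Of all windows at or above that mean, 92.3% were lower. The 19 HOX windows below it had a median of 0.75, with 11 higher and 1 lower, where 25.8% of all windows below it were higher and 14% lower. Over the whole genome the medians were -1.19 in the 79003 windows at or above the mean and 0.24 in the 197058 below it. Across the 56 windows Spearman's rho between H3K27me3 over H2AX replicate 1 and gamma-H2AX over H2AX replicate 2 was -0.82 for 1 h replicate 1 and -0.83 for replicate 2. Over 276061 windows of the genome these were -0.76 and -0.82. The HOX windows follow the genome's relation, and neighbouring windows share library, chromatin and base composition. Within clusters the same rho was -0.39 and -0.03 in HOXA and -0.40 and -0.59 in HOXD, where all windows are H3K27me3-rich, -0.77 and -0.80 in HOXB and -0.84 and -0.91 in HOXC, over 11 to 21 windows.

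**Figure D3:**
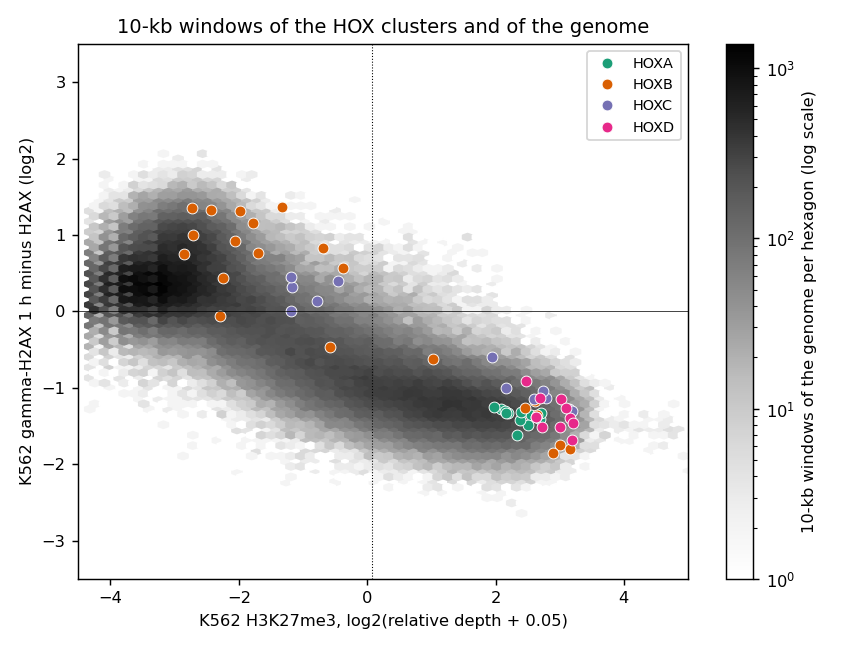
Gamma-H2AX at 1 h minus H2AX (log2, mean of both libraries each) against H3K27me3 (log2 of relative depth + 0.05) in K562, per 10-kb window, for the HOX clusters (coloured points) over all tested windows of the genome (grey, log-scaled density); the dotted line is the H3K27me3 library mean. HOXA and HOXD points lie together at the lower right, while HOXB and HOXC points lie in both parts.

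Against their own flanks the clusters gave a different order. A log2 ratio of cluster to flanks was tested with limma among 27730 regions (100-kb tiles and the 4 clusters), of which 21% were higher and 29.2% lower at 1 h than in H2AX (50.2% in either direction). HOXD stood out of its surroundings. Its cluster was 0.372 and 0.208 of its flanks in the 1 h libraries against 0.796 and 0.801 in H2AX, a log2 difference of -1.41 (SE 0.20, limma adjusted p = 0.000634). Only 1.33% of the tiles had a lower difference. HOXB was 1.16 and 1.48 of its flanks in the 1 h libraries against 0.898 and 0.937 in H2AX (log2 difference 0.50, SE 0.11, limma adjusted p = 0.00577). With 24 h replicate 1 in the fit the adjusted p were 0.0706 for HOXD and 0.0633 for HOXB, and without K562 H2AX replicate 1 it was 0.0537 for HOXB.

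HOXA, low as it was, did not differ from its surroundings in this test. It was 0.929 and 0.807 of its flanks in the 1 h libraries against 0.870 and 0.851 in H2AX (log2 difference 0.03, 95% interval -0.20 to 0.26, limma adjusted p = 0.850), and gamma-H2AX in the flanks was 0.512 and 0.309. H3K27me3 in those flanks was 2.66. With 500-kb flanks HOXA was lower, by a log2 difference of -0.63 (limma adjusted p = 0.00524). HOXC was 0.966 and 1.15 of its flanks in the 1 h libraries against 0.958 and 0.856 in H2AX (log2 difference 0.21, 95% interval -0.02 to 0.44, limma adjusted p = 0.125). Its result turned on the flank: 0.82 (limma adjusted p = 0.000533) with 100-kb flanks and -0.48 (limma adjusted p = 0.00233) with 500-kb flanks, and without 1 h replicate 1 it was 0.33 (limma adjusted p = 0.000141). The HOXC flanks were themselves unlike, with H3K27me3 of 5.12 on the group 13 side and 2.86 on the other.

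For H3K27me3 the cluster to flank ratio was 1.92 in HOXA against 0.870 and 0.851 in H2AX, and 3.18 in HOXD against 0.796 and 0.801 in H2AX. Both were higher than in H2AX, by 1.13 (SE 0.12, limma adjusted p = 5.29e-05) and 1.96 (SE 0.25, limma adjusted p = 0.000149) on the log2 scale, where 26.7% of all regions were higher and 68% passed in either direction. HOXB (0.21, 95% interval -0.11 to 0.52) and HOXC (0.14, 95% interval -0.14 to 0.43) did not pass, although HOXB did without 1 h replicate 1 or 2 in the fit (limma adjusted p = 0.00984 and 0.00997). With 100-kb flanks HOXB was lower, by -0.50 (limma adjusted p = 0.00661).

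**Figure D4:**
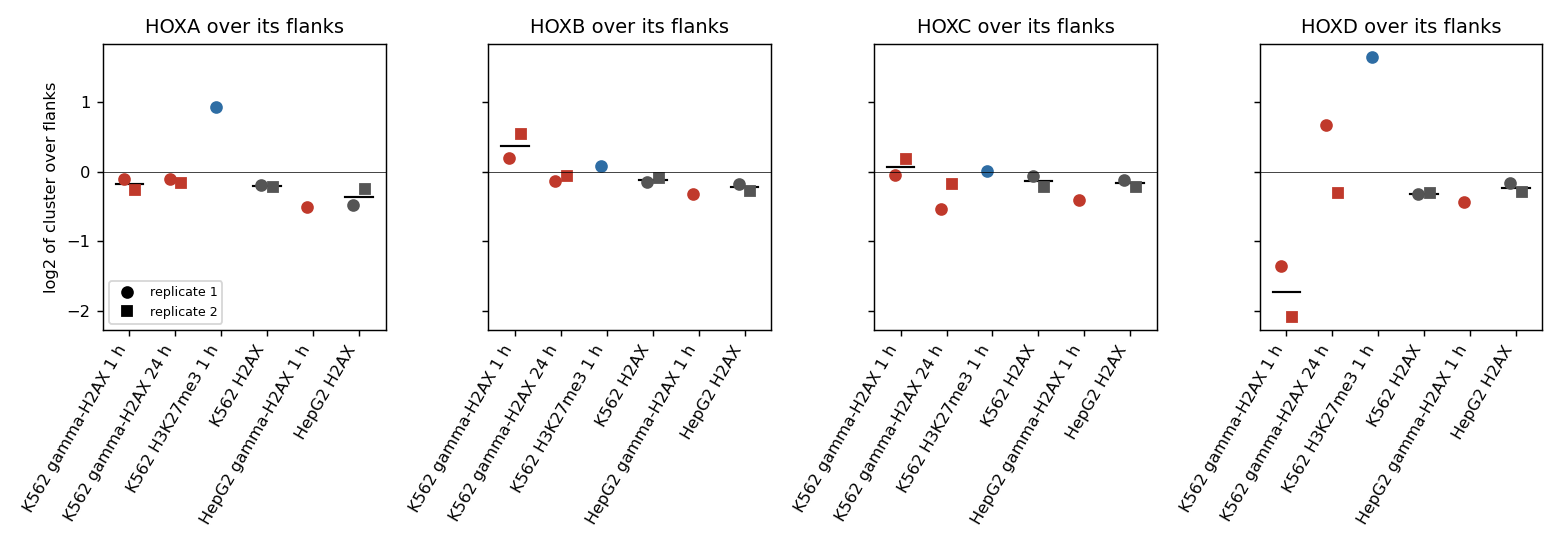
Log2 of the ratio of cluster to flanks (relative depth, pseudocount 0.05) for each library, by group; circles are replicate 1, squares replicate 2, and bars the mean of 2 libraries (none for 24 h, where replicate 1 stands apart). At 1 h the K562 gamma-H2AX points lie far below H2AX for HOXD and above it for HOXB, while the HepG2 points lie within 0.3 of their H2AX mean.

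At 24 h the clusters were read from replicate 2, the library without that gap in its track. It rises in steps of 41 bp and the 1 h tracks in steps of 60 bp, so recovery time and read length cannot be told apart. The relative depth of 24 h replicate 2 was 0.892 in HOXA, 1.05 in HOXB, 0.881 in HOXC and 1.23 in HOXD. Replicate 1 read 1.50, 0.703, 0.846 and 2.17 in the same order, with 60.5% of HOXB bins and 35% of HOXC bins at 0. Gamma-H2AX at 1 h was therefore below replicate 2 in HOXA and HOXD and above it in HOXB. Averaged over the cluster, HOXC at 24 h lay about where it was at 1 h, below both H2AX libraries. All 12 HOXC windows at 24 h had a log2 difference from H2AX below 0 (median -0.40), none past the threshold. So did 8 of 12 in HOXA, 19 of 21 in HOXB and 2 of 11 in HOXD, while the median of all windows was 0.032. The similar average hid opposite differences along HOXC. In its windows the log2 difference of 1 h from 24 h ran from -0.87 to 0.85. It was above 0 in the 5 windows of the H3K27me3 gap and below 0 in the other 7. Against 24 h, 11 HOX windows were higher at 1 h, where 15.3% of all windows were, and 28 were lower, where 32% of all windows were (47.2% in either direction). The higher ones were 10 in HOXB and 1 in HOXC. The lower ones were all 11 of HOXD, 10 in HOXA, 6 in HOXB and 1 in HOXC. With replicate 1 in the fit, 1 HOX window was higher and 26 were lower, against 7924 higher and 78166 lower of all 276061 windows. Replicate 1 also lay above 1 h in HOXA and HOXD, where 0 and 1 bins fall under its zeros. Those zeros stand where 1 h depth is high and lower its library mean, which raises its relative depth elsewhere. Its side of 1 h there is therefore not independent of the 1 h libraries and does not back replicate 2.

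Cluster against flanks, HOXD was lower at 1 h than at 24 h by a log2 difference of -1.41 (SE 0.25, limma adjusted p = 0.00219), where 27.4% of regions were lower and 46.2% passed in either direction. With only the 1 h and 24 h libraries in the fit this call was lost (SE 0.84, limma adjusted p = 0.191), and with 24 h replicate 1 in place of replicate 2 the difference was -2.39. HOXB was higher by 0.44 (SE 0.14, limma adjusted p = 0.0295), where 18.8% of regions were higher, but its adjusted p was 0.0601 to 0.0639 when any 1 of the 4 H2AX libraries was left out. Set against H2AX, no HOX window and no cluster passed at 24 h, and 0% of all windows did. Unadjusted p was under 0.05 in 7 of the 56 HOX windows and in 36602 of all windows. Without 1 h replicate 1 or 2 in the shared fit, 6 or 5 HOX windows were lower at 24 h, which is 10.7% or 8.93% of them, against 9.90% or 9.65% of all windows called. The 95% intervals of the cluster against flanks difference were -0.23 to 0.33 in HOXA, -0.25 to 0.37 in HOXB, -0.33 to 0.24 in HOXC and -0.57 to 0.58 in HOXD, so a difference in HOXD as large as that at 1 h lies outside its interval. These rest on replicate 2 and on the spread of the other groups. With replicate 1 in its place HOXD was higher by 0.98 (limma adjusted p = 0.0117) and HOXC lower by -0.40 (limma adjusted p = 0.0267).

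In HepG2, HOXB was not higher in gamma-H2AX than in H2AX. Averaged over the cluster, HOXC lay below H2AX as it did in K562, but not in the same windows. The HepG2 gamma-H2AX library at 1 h had a relative depth of 0.706 in HOXA, 1.03 in HOXB, 0.609 in HOXC and 1.16 in HOXD. HepG2 H2AX had 0.727 and 0.845 in HOXA, 1.34 and 1.23 in HOXB, 0.905 and 0.789 in HOXC and 1.43 and 1.27 in HOXD. The gamma-H2AX value was below both H2AX values in each cluster. The log2 difference of gamma-H2AX from H2AX was below 0 in 11 of the 12 HOXC windows. The same held for 8 of 12 in HOXA, 17 of 21 in HOXB and 9 of 11 in HOXD, while the median of all windows was 4.7e-05. In the 5 windows of the K562 H3K27me3 gap the median log2 difference was -0.71 in HepG2 and 0.32 in K562. In the other 7 it was -0.33 in HepG2 and -1.14 in K562. No HOX window passed against HepG2 H2AX, nor did any other (0%), and 9 of the 56 HOX windows, against 21958 of all windows, had an unadjusted p under 0.05. Without K562 1 h replicate 1 or 2 in the shared fit, 8 or 6 HOX windows were lower in HepG2 gamma-H2AX (14.3% or 10.7% of them, against 4.09% or 4.02% of all windows called). In HOXD the cluster against flanks difference was -0.20 (95% interval -0.77 to 0.38). H3K27me3 was not profiled in HepG2 here, so the state of its clusters is unknown.

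The difference between the lines was tested directly, as the 1 h over H2AX difference in K562 minus that in HepG2. It was higher in K562 in 12 HOX windows, where 9.2% of all windows were, and lower in 17, where 19.2% were. Of the higher windows 10 stood in HOXB and the other two in HOXC. Against flanks, HOXD differed by -1.21 (SE 0.32, limma adjusted p = 0.0211), where 21.1% of regions were lower, and HOXB by 0.59 (SE 0.17, limma adjusted p = 0.0316), where 13.9% were higher. HOXC (0.45, 95% interval 0.08 to 0.82, limma adjusted p = 0.0601) and HOXA (0.17, 95% interval -0.19 to 0.53) did not pass. HepG2 has 1 gamma-H2AX library, with the read step of the H2AX libraries and not that of K562 at 1 h, and these calls were lost in several fits. Without any 1 of the 4 H2AX libraries no HOX window passed and neither cluster did (limma adjusted p from 0.0722 to 0.123), and with 24 h replicate 1 in the fit none passed. Without K562 1 h replicate 1, 49 HOX windows passed, in a fit that called 52.2% of all windows against 28.4% with it, and HOXC passed against its flanks without replicate 1 or 2 (limma adjusted p = 6.21e-06 and 0.00816). Median-of-ratios scaling gave 13 higher and 12 lower HOX windows, with 24.7% of all windows called. With the replicate block, although the numbers were not taken as pairs, HOXB did not pass (0.54, limma adjusted p = 0.0618), and neither did it without the depth filter (limma adjusted p = 0.0551) or as the median over bins (limma adjusted p = 0.0514).

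The authors' deposited peak lists placed gamma-H2AX peaks in the same parts. HOXB held 6 peaks in the list of 1 h replicate 1, covering 4.69% of it, and 16 in that of replicate 2, covering 14.0%, against 1.86% and 2.79% of the genome. The 70 kb at the group 13 end had 0 in both lists. The peak of highest fold in HOXB was chr17:46606041-46606642 in replicate 1 (2.20-fold) and chr17:46693453-46694061 in replicate 2 (3.04-fold). HOXC had 0 peaks in replicate 1 and 2 in replicate 2, with the highest at chr12:54391201-54391676 (2.93-fold), inside the H3K27me3 gap. HOXA and HOXD had 0 in both lists. HOXD's flanks nevertheless carried 24 and 23 peaks over 11.7% and 8.69% of their length, whereas HOXA's flanks had 0 and 0. HOXB's flanks held 9 and 12 peaks over 3.92% and 4.43% of their length, close to the cluster in replicate 1 and below it in replicate 2. HOXC's flanks held 4 and 7 over 1.30% and 1.71%, more than the cluster's 0% and 0.684%. The 24 h and HepG2 lists, which are short, had no peak in any cluster or flank. At a q-value under 0.05 HOXB kept 0 of 6 and 2 of 16, and HOXC kept both of its peaks, where the whole lists kept 8.10% in replicate 1 and 14.7% in replicate 2.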

How the data were processed

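CUT&RUN was done per the labels' protocols by published methods. The submitters' processing notes name BWA 0.7.12, SAMtools, MACS2 and hg19, with no roles or settings. The deposited signal tracks hold coverage, averaged per base over 1-kb bins and not scaled to depth. The authors' peak lists, 5 in all, give per peak a fold enrichment (a linear ratio) with p-values and q-values as −log10, called per library; these values are the authors' own. Which control the fold was set against is unknown here.

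Each track was divided by its library mean. Bins were averaged into 10-kb windows holding at least 50% of their bins, chromosome Y left out, and windows with a mean relative H2AX depth of at least 0.25 over the 4 H2AX libraries were kept. Tests were made in R 4.3.3 by limma 3.58.1 with a trend of variance on the mean, on log2(relative depth + 0.05), which shrinks fold changes of windows near 0, or on log2((region + 0.05)/(flanks + 0.05)). Each fit had 9 libraries, 6 group means and 3 residual degrees of freedom. K562 gamma-H2AX at 24 h (replicate 2), HepG2 gamma-H2AX and H3K27me3 have 1 library in it and borrow the spread of the other groups. P-values measure the spread between libraries, which may be technical. Adjusted p-values are Benjamini-Hochberg over all rows. Comparisons share the 1 h and H2AX libraries and are not independent. Comparisons made were 6 in number.

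At the read steps named, 10-kb windows at the library mean hold 78.9 to 295 reads, a counting error of 5.82% to 11.3% if reads are independent. On simulated data with 200 changed windows, K562 1 h tested against H2AX gave back 0% of the changes of 0.5 on the log2 scale and 51% of those of 1 (10 false calls) over 276061 windows. Over 27730 regions against flanks it gave back 84% and 100%, with 19 and 17 false calls. Windows named are, per cluster, those of highest and lowest 1 h minus H2AX difference and of highest H3K27me3, and per list and cluster the peak of highest fold; others are marked as chosen after their values were seen. The end windows of clusters were chosen by position. Replicate numbers were checked for pairing and not used as such. The clusters, tests and alternatives were chosen with earlier results of these data known. Figures used matplotlib 3.10.9, and tables used pandas 2.3.3, scipy 1.17.1 and numpy 2.4.6 under Python 3.11.15.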

Additional observations from a re-analysis of the deposited data

Results flagged for a closer look

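The difference between the K562 and HepG2 responses at 1 h, tested as an interaction in limma, passed for 2 clusters against their flanks, HOXB (0.59 on the log2 scale) and HOXD (-1.21). It also passed for 5 of the named 10-kb windows. These were the HOXA window from 27200001 (-1.97), the HOXB windows from 46710001 (1.73) and 46790001 (-1.77), the HOXC window from 54360001 (-0.89) and the HOXD window from 177020001 (-1.47). Of all regions 35% passed, and of all windows 28.4%. The 5 windows had been named for an extreme 1 h minus H2AX difference in K562, which is part of this interaction. A pass was thus favoured in advance and adds no support. HepG2 has 1 gamma-H2AX library, and these calls were lost in several fits, as given above.

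K562 gamma-H2AX 24 h replicate 1, which entered none of the comparisons described first, had a cluster to flank ratio of 1.61 in HOXD and 0.927 in HOXA. The K562 H2AX libraries had 0.796 and 0.801 in HOXD and 0.870 and 0.851 in HOXA, and 24 h replicate 2 had 0.801 in HOXD and 0.893 in HOXA. The track of replicate 1 reads 0 wherever 1 h depth is high, which holds for 1 of 110 HOXD bins and for 0 of 120 HOXA bins. In the flanks of HOXD, 43% of its bins read 0.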

How the results depend on the processing

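Of 508 values under the alternatives tried for the counts, cluster differences and peaks, 431 kept their direction and their side of the threshold, or stayed within 1.5 times for counts, 18 turned round, 16 passed newly, 25 no longer passed and 18 counts moved further. Of 154 for the named windows at 1 h against H2AX, 138 kept theirs, 14 no longer passed, 2 passed newly and 0 turned round. The cause of each change was not tested unless the setting shows it.

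Windows called are given as a percent of the HOX windows, with the percent of all windows called in brackets. With 24 h replicate 1 in the fit they were 0 (0) for 1 h against H2AX and 0 (0) for the difference between lines. With the compared groups alone they were 42.9 (25.8) for 1 h against 24 h, 14.3 (13.7) for 24 h against H2AX and 10.7 (3.87) for HepG2 against H2AX. In 5-kb windows the difference between lines gave 29.5 (15.5). Leaving out single libraries gave 67.9 to 91.1 for 1 h against H2AX, 0 to 46.4 for 24 h against H2AX, 0 to 14.3 for HepG2 against H2AX and 0 to 87.5 for the difference between lines.

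Cluster against flank differences are on the log2 scale. For 1 h against H2AX, HOXC gave 0.82 with 100-kb flanks, -0.48 with 500-kb flanks and 0.48 as the median over bins, and HOXA gave -0.63 with 500-kb flanks. HOXB (0.50) and HOXD (-1.41) no longer passed with 24 h replicate 1 in the fit. For 1 h against 24 h, HOXC gave 0.84 with 100-kb and -0.43 with 500-kb flanks, and HOXA gave 0.0063 with a pseudocount of 0.2, 0.087 with 100-kb flanks, -0.68 with 500-kb flanks and 0.11 as the median over bins. HOXB no longer passed without the depth filter (0.44) or as the median over bins (0.32), nor did HOXD with the compared groups alone (-1.41). For 24 h against H2AX, HOXD gave -0.041 with 100-kb and -0.0043 with 500-kb flanks. For the difference between lines, HOXC gave 1.07 with 100-kb and -0.23 with 500-kb flanks, and HOXA -0.52 with 500-kb flanks. HOXB no longer passed without the filter (0.59), with 24 h replicate 1 (0.59), with the replicate block (0.54) or as the median over bins (0.61), nor did HOXD with 24 h replicate 1 (-1.21), 500-kb flanks (-0.62) or as the median over bins (-0.60). For H3K27me3, HOXC gave -0.087 with 100-kb flanks, 1.15 with 500-kb flanks and -0.17 as the median over bins, and HOXB gave -0.50 with 100-kb flanks and 0.21, then past the threshold, with the compared groups alone.

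Leaving out single libraries gave, for 1 h against H2AX, 0.090 to 0.33 in HOXC, 0.33 to 0.67 in HOXB and -0.056 to 0.11 in HOXA. For 1 h against 24 h it gave 0.13 to 0.61 in HOXC, 0.26 to 0.61 in HOXB, -0.11 to 0.058 in HOXA and -2.39 to -1.05 in HOXD. The 0.61 in HOXC and the -2.39 in HOXD came from the swap of 24 h replicate 2 for replicate 1. For 24 h against H2AX leaving out single libraries gave -0.40 to 0.036 in HOXC, -0.015 to 0.091 in HOXB and -0.0011 to 0.98 in HOXD. Here the -0.40, -0.015 and 0.98 came from the same swap. For the difference between lines leaving out single libraries gave 0.33 to 0.57 in HOXC, 0.42 to 0.76 in HOXB and -1.58 to -0.84 in HOXD, and for H3K27me3 0.18 to 0.24 in HOXB. Peaks with q under 0.05 numbered 0 in 1 h replicate 1 and 4 in replicate 2.

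Replicates with the same number did not deviate together (correlations of 0.068, 0.018 and 0.049 over windows), so the numbers were not taken as pairs. With the replicate block 11 HOX windows were higher and 37 lower at 1 h than in H2AX, with 55.1% of all windows called. Between lines 12 were higher and 13 lower, with 22.7% of all windows called. In a simulation with 200 changed windows, none of the changes of 0.5 on the log2 scale was called; its threshold is not that of the data, where 54.9% of windows passed.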
